A study of Mus musculus with 8 samples.

Results

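The 37 genes described here make up the antioxidant system that NRF2 governs together with glutathione and thioredoxin. They were chosen by name from what their products are known to do, with earlier results of these data known, out of 55573 genes in the deposited table. All 37 passed the filter on low counts, as did 17411 genes in all. Their RNA was counted by sequencing hearts of C57BLKS/J males aged 24 weeks, in 4 db/m and 4 db/db libraries made from 3 µg of total RNA each. Both groups had the same strain, sex and age, and no agent is named for either. The db/db mouse is homozygous for a mutation of the leptin receptor gene and becomes obese and diabetic, whereas the heterozygous db/m mouse is its lean control. The mutation is in every cell of the body, so effects within the heart and effects of obesity and diabetes on it cannot be told apart in this design. The labels name no part of the heart and do not state that each library is a separate animal, so p-values measure the spread between these libraries, which may be partly technical.

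NRF2, encoded by Nfe2l2, is a transcription factor that KEAP1 holds in the cytoplasm and hands over for degradation. Oxidants and electrophiles modify KEAP1, after which NRF2 enters the nucleus and binds antioxidant response elements near genes of quinone reduction, glutathione synthesis and thioredoxin reduction. Superoxide dismutases turn superoxide into hydrogen peroxide, which catalase, glutathione peroxidases and peroxiredoxins remove. The peroxidases and peroxiredoxins do so at the expense of glutathione, thioredoxin and, in the end, NADPH. In heart muscle, rich in mitochondria, the mitochondrial enzymes SOD2, PRDX3, PRDX5, TXN2 and TXNRD2 act beside those of the cytosol.

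Total counts were 19541757 to 22249911 per library. Among these, 2 db/m libraries stood apart from the other 6. In db/m replicates 1 and 3 the summed level of 8 atrial muscle markers was 1705 and 3973 CPM, where CPM is the count after scaling all libraries to a common size, against 80.8 to 142 in the other db/m libraries and 86.6 to 206 in db/db. For the adipocyte hormone gene Adipoq 1082 and 2243 reads were counted there and 0 to 10 elsewhere, and for the brown fat gene Ucp1 1765 and 8220 against 0 to 2. Over all 10 adipocyte markers the range was 612 to 1534 CPM in db/m and 633 to 1030 CPM in db/db. The 8 fibroblast markers summed to 2191 and 2032 CPM in db/m replicates 1 and 3 and to 1092 to 1564 CPM in the other 6 libraries. Ventricular muscle markers, at 28290 to 36155 CPM in db/m and 31092 to 37860 CPM in db/db, were high in all 8 libraries. That sum is largely Myh6, which was highest in db/m replicate 3 at 20479 CPM (14386 to 16784 in the other db/m libraries). Ryr2 was also highest there, at 1458 CPM (1077 to 1344). The remaining ventricular markers were low in that library. Myl2 had 117 CPM (593 to 781), Myl3 758 (2334 to 3255) and Tnni3 417 (1127 to 1396). Tnnt2 had 489 CPM (971 to 1109), Actc1 3796 (8475 to 10122) and Pln 775 (1477 to 2015). The part of all these markers in the results was not tested. Results are therefore given with all libraries and, where it matters, without db/m replicate 3 or without db/m replicates 1 and 3.

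Most antioxidant genes had higher means in db/db than in db/m, but 0 of the 37 passed an adjusted p of 0.05 in edgeR's quasi-likelihood test, a threshold that 0.00574% of all tested genes passed (1 gene). DESeq2 passed 3 of the 37 (8.11%, against 1.77% of all genes to which it gave an adjusted p), namely Nqo1, Gsta4 and Cat, and limma-voom passed 2 (5.41%, against 0.747%), Nqo1 and Gsta4. By edgeR, an unadjusted p under 0.05 was reached by 6 of the 37 (16.2%), near the 13.0% of all tested genes. Of these, 5 were higher in db/db (13.5%, against 5.12% of all tested genes), namely Nqo1, Gsta4, Mgst3, Cat and Sod1. Gpx8 alone was lower (2.7%, against 7.84%). With the length trend of each library removed, 9 of the 37 reached an unadjusted p under 0.05 (24.3%, against 14.3% of all tested genes). Of these, 6 were higher (16.2%, against 1016 of the 17411 tested genes) and 3 lower (8.11%, against 8.43%). The 3 lower genes were Gpx3 (-0.84 on the log2 scale), Gpx8 (-0.60) and Sod3 (-0.44). Log2 fold changes were positive for 28 of the 37 (75.7%, against 47.7% of all tested genes), with a median of 0.25, where that of all tested genes was -0.02. Scaled by total counts, 25 of the 37 were positive. The values of the 4 db/db libraries lay wholly above those of the 4 db/m libraries for 7 of the 37 (18.9%, against 5.04% of all tested genes) and wholly below for 1 (2.7%, against 4.61%). In bulk RNA, fewer cells of a type and less RNA per cell cannot be told apart, which applies to every difference given here.

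**Figure D1:**
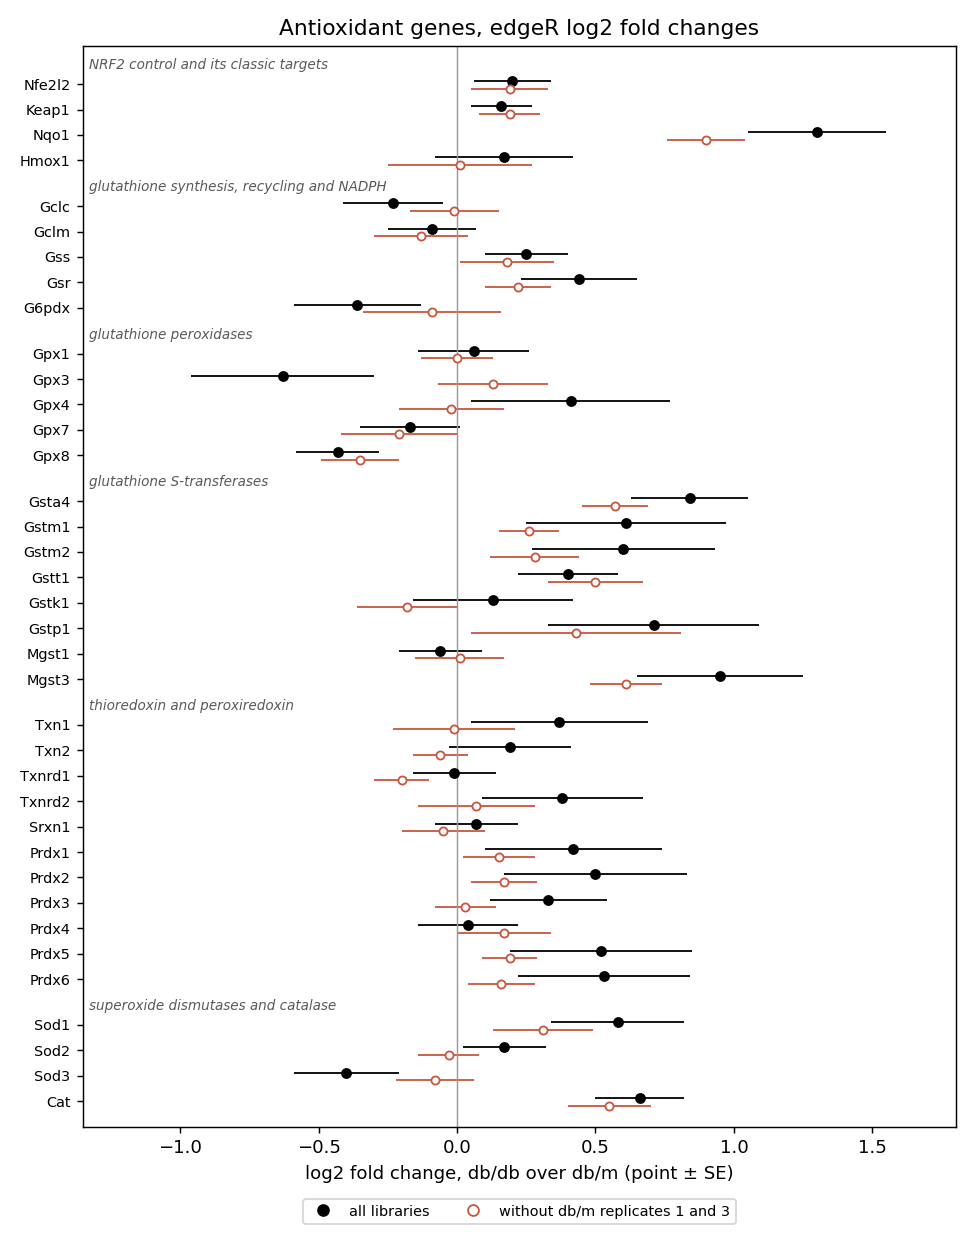
Log2 fold change of db/db over db/m (horizontal axis, with the SE as a bar) of each of the 37 genes by functional arm, with all 8 libraries (filled points) and without db/m replicates 1 and 3 (open points). Nqo1 lies farthest right at 1.30 with all libraries and 0.90 without these, while Gpx3 moves across 0 from -0.63 to 0.13.

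The counts of genes with an unadjusted p under 0.05 moved with single libraries. Without db/m replicate 2 there were 11 of the 37 (29.7%, against 16.2% of all genes tested), and 14 had groups that did not overlap (37.8%, against 16.8%). The library that stood most apart in these genes was db/m replicate 3, which had the lowest value of all 8 in 27 of the 37 genes (73%), against 32.1% of all tested genes, and the highest in 4, against 31.7%. The median difference between it and the mean of the other db/m libraries was -0.76 on the log2 scale over the 37 genes and 0.01 over all tested genes. Short genes were low in this library in general, with a median of -0.56 over all genes under 1500 bases, where the 9 antioxidant genes of that length had -0.95. Among genes of 3000 to 6000 bases the medians were 0.05 for all genes and -0.56 for the 12 antioxidant genes. Without db/m replicate 3 the median of the 37 was 0.15 and 24 of 37 were positive. An unadjusted p under 0.05 was then reached by 11 higher genes (29.7%, against 6.84% of all genes tested) and 1 lower (2.7%, against 6.34%). Adjusted p passed for 2 of them, Mgst3 and Gsta4 (5.41%, against 0.6%). With both db/m replicates 1 and 3 left out the 37 had a median of 0.13 and 23 of 37 were positive. At an unadjusted p under 0.05, 6 were then higher and 1 lower (16.2% and 2.7%, against 5.63% and 5.04%). Nqo1 alone passed after adjustment (2.7%, against 0.256%). Near-identical pseudogenes, described below, held more counts than the gene itself for 7 of the 37. The other 30 had a median of 0.17 with all libraries, 0.06 without db/m replicate 3 and 0.05 without db/m replicates 1 and 3. Positive were 21, 17 and 18 of these 30.

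**Figure D2:**
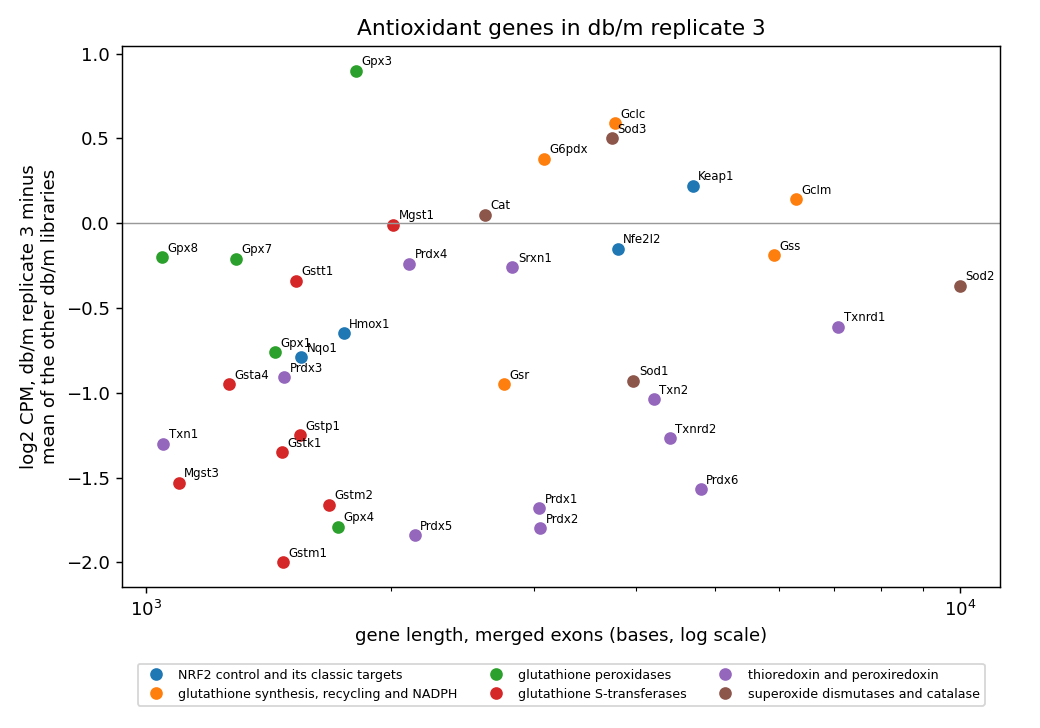
Log2 CPM in db/m replicate 3 minus the mean of the other db/m libraries (vertical axis) against gene length in bases (horizontal axis, log scale) for the 37 genes, coloured by arm. Of the 37 genes 30 lie below 0, with Gstm1, Prdx5, Prdx2 and Gpx4 lowest and Gpx3 highest.

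The NRF2 arm was led by Nqo1, the quinone reductase often taken as a readout of NRF2 activity (ENSMUSG00000003849, chromosome 8, 107388225 to 107403206, minus strand, mm10). Its CPM was 20.9, 39.0, 17.6 and 34.8 in db/m replicates 1 to 4 and 78.3, 75.2, 61.3 and 61.3 in db/db replicates 1 to 4. Every db/db library lay above every db/m library, and the lowest values were those of db/m replicates 1 and 3. The means were 28.1 ± 10.4 and 69.0 ± 9.01 CPM (SD, n = 4 each), a 2.46-fold difference. On the log2 scale it was 1.30 (SE 0.25) with an edgeR adjusted p of 0.136. It was positive in 19 of 19 alternative settings, at 0.90 to 1.5. DESeq2 gave an adjusted p of 0.000334, limma-voom one of 0.0212, and edgeR one of 0.0289 when db/m replicates 1 and 3 were left out.

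Nfe2l2 itself, the NRF2 gene (chromosome 2, 75675513 to 75704641), had 101, 97.1, 86.9 and 91.4 CPM in db/m and 89.4, 133, 107 and 103 CPM in db/db. The groups overlapped, with db/db replicate 2 highest and db/m replicate 3 lowest. Its log2 fold change was 0.20 (SE 0.14, edgeR adjusted p = 0.527). Keap1, which encodes the NRF2 inhibitor, differed by 0.16 (SE 0.11) on the log2 scale. Hmox1, which encodes the inducible haem oxygenase, ranged from 9.55 to 15.3 CPM in db/m and from 9.75 to 21 CPM in db/db, and its log2 fold change of 0.17 (SE 0.25) was 0.03 without db/m replicate 3 and -0.05 with limma-voom. Of the 4 genes of this arm, Nqo1 was thus the one whose genotypes did not overlap.

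The antioxidant response element was looked for in the RefSeq promoter windows (GRCm38.p6) of 250 bases before to 50 after each gene's start, as its core TGACNNNGC on either strand. Windows were found for 31 of the 37 genes. The core was present in 8 of them (25.8%), against 3781 of 27025 genes (14.0%). They are shown because they are the genes of the list in which this window holds the sequence that NRF2 is known to bind, with the core in capitals, 10 bases on each side and the strand on which it reads:
Nfe2l2 at chr2:75704885-75704913, minus strand: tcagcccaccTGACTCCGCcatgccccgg
Srxn1 at chr2:152105542-152105570, minus strand: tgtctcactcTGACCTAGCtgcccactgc
Gclm at chr3:122245413-122245441, minus strand: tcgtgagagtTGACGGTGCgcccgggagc
Prdx1 at chr4:116685456-116685484, minus strand: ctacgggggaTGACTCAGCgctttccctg
Mgst1 at chr6:138140461-138140489, minus strand: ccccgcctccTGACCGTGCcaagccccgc
Txnrd1 at chr10:82859104-82859132, minus strand: cgtgtcagaaTGACAAAGCaaaaatccag
Sod1 at chr16:90220696-90220724, minus strand: ggcctgagtcTGACCACGCccaccttggc
G6pdx at chrX:74428919-74428947, plus strand: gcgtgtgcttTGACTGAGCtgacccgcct
Of these 8 genes, Sod1 was the one with an unadjusted p under 0.05, which 13.0% of all tested genes had, and their log2 fold changes ranged from -0.36 (G6pdx) to 0.58 (Sod1). The Nqo1 window held no match, which says only that these letters are not in it. Hmox1, Gclc, Gsr, Gsta4, Prdx6 and Sod3 had no window.

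The 5 genes of glutathione synthesis and recycling had a median log2 fold change of -0.09, 2 positive and 3 negative, and 0 of 5 had an unadjusted p under 0.05. Gclm, the modifier subunit of the rate-limiting glutamate-cysteine ligase (chromosome 3, 122245557 to 122270732), had 34.1, 37.6, 41.4 and 41.4 CPM in db/m and 37.5, 41.3, 26.3 and 40.2 CPM in db/db. Apart from db/db replicate 3, which was lowest, the libraries of both groups covered the same range, and the log2 fold change was -0.09 (SE 0.16, edgeR adjusted p = 0.796). Gclc, the catalytic subunit, had -0.23 (SE 0.18), or -0.05 without db/m replicate 3 and -0.01 without replicates 1 and 3 of db/m. Gss, which adds glycine to complete glutathione, had 0.25 (SE 0.15).

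Gsr, the glutathione reductase that regenerates glutathione with NADPH (chromosome 8, 33652523 to 33698163), had 21, 23.9, 11.4 and 21.2 CPM in db/m and 26.9, 24.9, 27.2 and 26.4 CPM in db/db. All db/db libraries were above all db/m libraries, although db/m replicate 2 came close, and db/m replicate 3 was far below the rest. On the log2 scale the genotypes differed by 0.44 (SE 0.21, edgeR adjusted p = 0.396). Leaving out db/m replicates 1 and 3 gave 0.22. G6pdx, which makes NADPH in the pentose phosphate pathway, had -0.36 (SE 0.23) with overlapping groups, and -0.09 without the same 2 libraries.

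The glutathione peroxidases pointed both ways, with 2 positive and 3 negative log2 fold changes and a median of -0.17. Gpx8, a peroxidase of the endoplasmic reticulum (chromosome 13, 113042753 to 113046410), was the gene of the whole list that was lower in db/db without overlap. Its CPM was 30.6, 23.2, 22.4 and 24.0 in db/m and 18.6, 21.2, 17.0 and 17.5 in db/db. The highest value was that of db/m replicate 1, and the nearest libraries of the groups were db/m replicate 3 and db/db replicate 2. Gpx8 had a log2 fold change of -0.43 (SE 0.15, edgeR adjusted p = 0.302), and it was negative in 19 of 19 alternative settings, at -0.60 to -0.32. Gpx7, another peroxidase of the endoplasmic reticulum, had -0.17 (SE 0.18).

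Gpx3, which encodes the secreted plasma peroxidase (chromosome 11, 54902453 to 54910377), had per length 215 ± 102 CPM per kilobase of exon (RPKM) in the db/m libraries, against 140 ± 36.3 in those of db/db (SD, n = 4 each). In CPM it had 531, 238, 570 and 224 in db/m and 247, 348, 213 and 204 in db/db. Its high values were those of replicates 1 and 3 of db/m, which also carried the atrial, adipocyte and fibroblast markers, and the part of those cells in this result was not tested. The log2 fold change of -0.63 (SE 0.33, edgeR adjusted p = 0.430) was -0.38 without db/m replicate 3 and 0.13 (SE 0.20) without these 2 libraries. Gpx1, the cytosolic peroxidase (chromosome 9, 108338903 to 108340343), had 124, 108, 64.7 and 97.4 CPM in db/m and 95.2, 106, 123 and 88.7 CPM in db/db. Its groups overlapped throughout, and the log2 fold change of 0.06 (SE 0.20) was -0.09 without db/m replicate 3 and -0.04 when scaled by total counts.

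**Figure D3:**
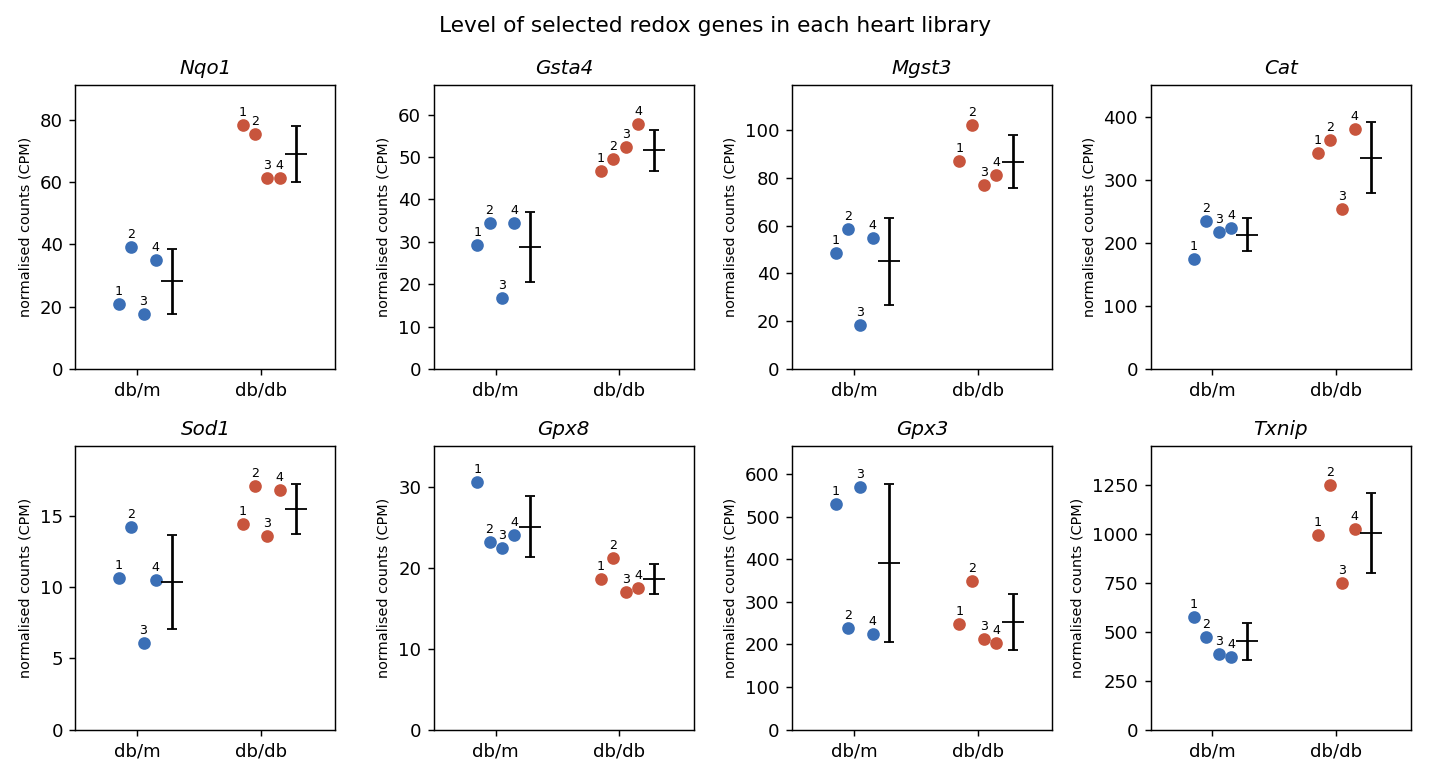
CPM (vertical axis, from 0) of Nqo1, Gsta4, Mgst3, Cat, Sod1, Gpx8, Gpx3 and Txnip in each library (points, numbered by replicate), with the mean and SD of each group of 4 beside them. Nqo1, Gsta4, Mgst3, Cat and Txnip are higher in every db/db library than in any db/m library, while Gpx3 is high in db/m replicates 1 and 3 only.

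Glutathione S-transferases, which join glutathione to electrophiles such as lipid aldehydes, had the highest median of the 6 arms, 0.61 on the log2 scale, with 7 of 8 genes positive. With the pseudogene counts described below added to each gene, the median was 0.42, where that of the dismutases and catalase was 0.38. Without db/m replicate 3 the transferase median was 0.33, and Mgst1 and Gstk1 were negative (-0.06 and -0.10). The median was 0.35 without db/m replicates 1 and 3, where Gstk1 was the negative gene in place of Mgst1. Gsta4, the transferase specialised for 4-hydroxynonenal (ENSMUSG00000032348, chromosome 9, 78182774 to 78209349), had 29.3, 34.4, 16.8 and 34.5 CPM in db/m and 46.6, 49.5, 52.4 and 57.8 CPM in db/db. The groups stood well apart, with db/m replicate 3 lowest. Means were 28.8 ± 8.32 and 51.6 ± 4.76 CPM (SD, n = 4 each), and the log2 fold change was 0.84 (SE 0.21, edgeR adjusted p = 0.219). Adjusted p was 0.0295 by edgeR without db/m replicate 3, 0.0794 without db/m replicates 1 and 3, 0.0240 with DESeq2 and 0.0317 with limma-voom.

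Mgst3, a membrane-bound transferase with peroxidase activity (ENSMUSG00000026688, chromosome 1, 167371966 to 167393841), had 48.4, 58.6, 18.5 and 54.8 CPM in db/m and 87.1, 102, 77.0 and 81.0 CPM in db/db. No db/m library reached the lowest db/db library. Mgst3 had a log2 fold change of 0.95 (SE 0.30, edgeR adjusted p = 0.296). Without db/m replicate 3 it was 0.69 (adjusted p = 0.0301). Leaving out db/m replicates 1 and 3 together gave 0.61 (adjusted p = 0.0838). Its relative Mgst1 overlapped between groups, at 49.3 to 66.6 CPM in db/m and 48.8 to 69.9 CPM in db/db.

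Gstm1, a cytosolic transferase of the mu class (chromosome 3, 108012255 to 108017973), had 99.7, 108, 26.6 and 111 CPM in db/m and 121, 146, 132 and 128 CPM in db/db. The groups did not overlap, but db/m replicate 3 was far below the other db/m libraries. The log2 fold change was 0.61 (SE 0.36, edgeR adjusted p = 0.465) with it and 0.31 without it. Gstm2 and Gstt1 had 0.60 (SE 0.33) and 0.40 (SE 0.18), with overlapping groups. Without db/m replicate 3 these were 0.34 and 0.32, and without both db/m replicates 1 and 3 they were 0.28 and 0.50. The Gstm2 counts are uncertain, because a stretch of 145 bases is 97.9% identical to a transcript of Gm6665, annotated as protein-coding. Gm6665 held 11781 counts over the 8 libraries, where Gstm2 held 3904. Gstk1, the mitochondrial and peroxisomal transferase, had 0.13 (SE 0.29), and -0.18 (SE 0.18) without db/m replicates 1 and 3.

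The thioredoxin and peroxiredoxin arm was positive for 10 of 11 genes, with a median of 0.37, or for 8 of 11 when scaled by total counts, and 0 of 11 had an unadjusted p under 0.05. The median was 0.07, with 7 of 11 positive, once db/m replicates 1 and 3 were left out. Prdx3, the peroxiredoxin of the mitochondrial matrix (chromosome 19, 60864051 to 60874556), had 221, 308, 137 and 252 CPM in db/m and 293, 281, 287 and 293 CPM in db/db. The db/db libraries were close to each other, and db/m replicate 2 was above all of them. The log2 fold change of 0.33 (SE 0.21, edgeR adjusted p = 0.495) was 0.03 without db/m replicates 1 and 3.

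Prdx5, which acts in mitochondria, peroxisomes and cytosol (chromosome 19, 6906697 to 6910106), had 127, 141, 37.6 and 136 CPM in db/m and 153, 163, 157 and 161 CPM in db/db. The groups did not overlap, and db/m replicate 3 was the outlying library. Its log2 fold change was 0.52 (SE 0.33, edgeR adjusted p = 0.491). Leaving out db/m replicates 1 and 3 gave 0.19. Of its exon bases 19.1% also belong to Trmt112 on the other strand, which held 189 counts, and the sources do not state whether counting used the strand.

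Prdx6, the peroxiredoxin reduced by glutathione, had 41.4 to 133 CPM in db/m and 127 to 172 CPM in db/db. Among the reductases, Txnrd1, of the cytosol and a known NRF2 target, had -0.01 (SE 0.15) on the log2 scale, and its mitochondrial partner Txnrd2 had 0.38 (SE 0.29), or 0.15 without db/m replicate 3 and 0.07 without replicates 1 and 3. Txn2, the mitochondrial thioredoxin, had 0.19 (SE 0.22), or -0.01 without db/m replicate 3. Srxn1, which repairs over-oxidised peroxiredoxins, had 0.07 (SE 0.15), and Prdx4, of the endoplasmic reticulum, had 0.04 (SE 0.18). Scaled by total counts, Srxn1 and Prdx4 had -0.04 and -0.08. All of these overlapped between groups.

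**Figure D4:**
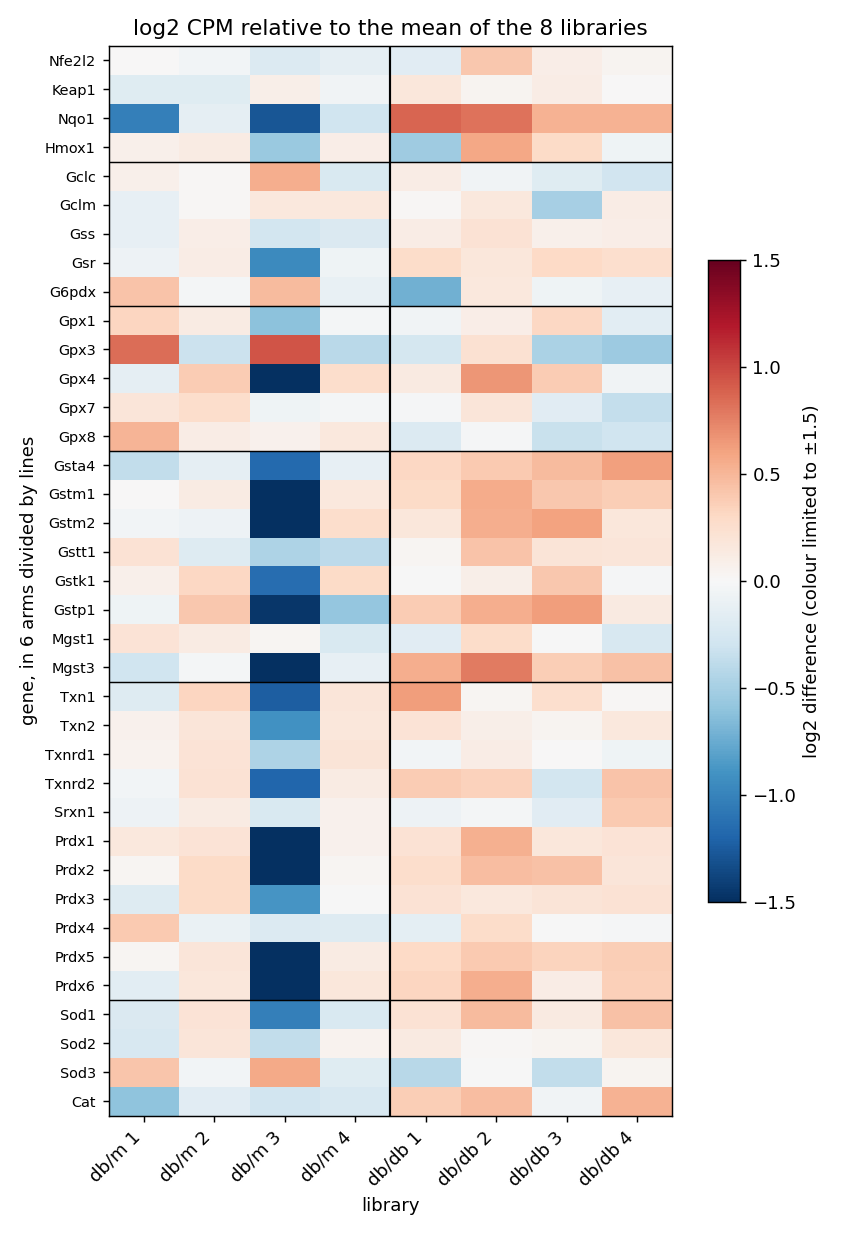
Log2 CPM of each of the 37 genes (rows, in 6 arms divided by lines) in each of the 8 libraries (columns), relative to the mean of the 8, with red higher and blue lower. The column of db/m replicate 3 is blue for most transferases, thioredoxin and peroxiredoxin genes, and red for Gpx3, Gclc, G6pdx and Sod3.

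Catalase and the superoxide dismutases differed among themselves. Cat, the hydrogen peroxide-splitting enzyme of peroxisomes (ENSMUSG00000027187, chromosome 2, 103453849 to 103485160), had 175, 235, 218 and 224 CPM in db/m and 343, 364, 255 and 382 CPM in db/db. Every db/db library was above every db/m library, and db/m replicate 3 lay within its group. Means were 213 ± 26.1 and 336 ± 56.4 CPM (SD, n = 4 each), a 1.58-fold difference with a log2 fold change of 0.66 (SE 0.16, edgeR adjusted p = 0.206). DESeq2 gave an adjusted p of 0.0180 and limma-voom 0.0615. Without db/m replicate 3 the log2 fold change was 0.67 (edgeR adjusted p = 0.0832). Leaving out db/m replicates 1 and 3 together gave 0.55 (adjusted p = 0.207).

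Sod2, the manganese enzyme of the mitochondrial matrix (chromosome 17, 13006846 to 13040063), had the most counts of the list, with 559, 749, 510 and 682 CPM in db/m and 727, 669, 681 and 745 CPM in db/db. The db/db libraries lay inside the upper part of the db/m range. For Sod2 the log2 fold change was 0.17 (SE 0.15, edgeR adjusted p = 0.602). Leaving out db/m replicates 1 and 3 gave -0.03. Its level is uncertain, because 3110 bases of its transcript are 98.3% identical to a transcript of Rps6ka2. Sod3, the secreted enzyme, had 149 and 166 CPM in db/m replicates 1 and 3 and 98.2 to 109 CPM in the other db/m libraries, against 83.7 to 115 CPM in db/db. Its log2 fold change of -0.40 (SE 0.19) was -0.08 without these 2 libraries, the ones that carried more fibroblast and adipocyte RNA, whose part in the result was not tested.

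Sod1, the copper-zinc enzyme of the cytosol (chromosome 16, 90220754 to 90226329), had 10.6, 14.2, 6.08 and 10.5 CPM in db/m and 14.4, 17.1, 13.6 and 16.8 CPM in db/db. The groups overlapped by db/m replicate 2 and db/db replicate 3. The log2 fold change was 0.58 (SE 0.24, edgeR adjusted p = 0.355), and leaving out both db/m replicates 1 and 3 gave 0.31. These counts are uncertain, as are those of 6 more genes of the list, because near-identical pseudogenes held more counts than the genes themselves.

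Pseudogenes of at least 95% identity took 98.8% of the summed counts for Gstp1, 98.3% for Gpx4, 94.7% for Sod1, 90.7% for Txn1, 87.8% for Prdx1, 83.3% for Prdx2 and 71.6% for Gstm1. Of these pairs 2 are shown because the similarity of their coding sequences is what leaves the source of each read uncertain. Bases that differ between the gene and its copy are in capitals in both:
Gpx4, coding bases 120 to 209: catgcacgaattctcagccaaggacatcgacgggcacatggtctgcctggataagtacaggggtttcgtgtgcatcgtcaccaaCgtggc
Gpx4-ps2 (chromosome 10, 45875291 to 45876086): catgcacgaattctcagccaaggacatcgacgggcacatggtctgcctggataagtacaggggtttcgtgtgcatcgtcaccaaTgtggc
Txn1, coding bases 6 to 95: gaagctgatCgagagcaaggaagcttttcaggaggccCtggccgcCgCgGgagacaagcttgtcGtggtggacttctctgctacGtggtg
Txn-ps1 (chromosome 1, 44463923 to 44464231): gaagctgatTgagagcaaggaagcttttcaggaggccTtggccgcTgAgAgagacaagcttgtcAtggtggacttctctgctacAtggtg
Gpx4 and its copy differed at 2 of 538 aligned coding bases with a longest identical run of 314 bases, and Txn1 at 12 of 308 with a run of 71. Gpx4-ps2 held 131364 counts over the 8 libraries, where Gpx4 held 2272.

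**Figure D5:**
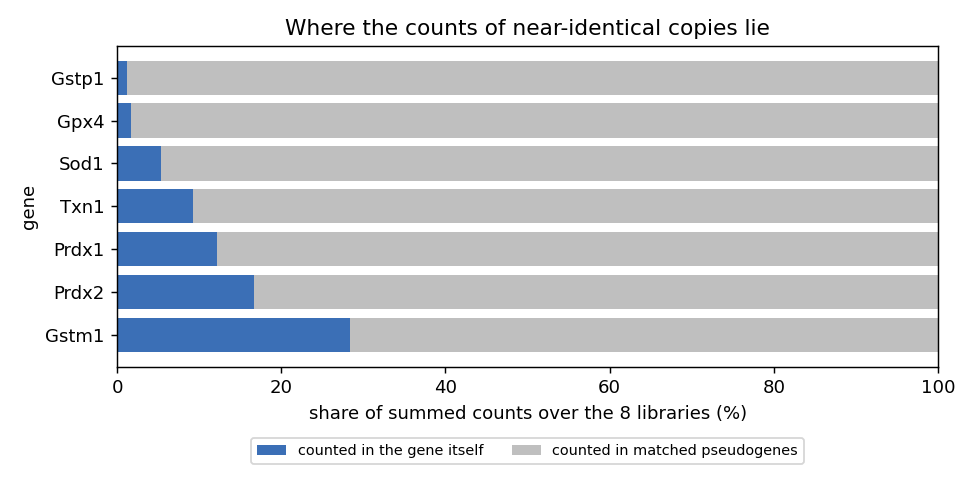
Share of the summed counts over the 8 libraries (horizontal axis, percent) assigned to each of 7 genes itself (blue) and to its near-identical pseudogenes (grey). The gene itself held the smaller share in all 7, with Gstp1 and Gpx4 smallest and Gstm1 highest.

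When the pseudogene counts were added to their gene, Gpx4, the peroxidase that reduces lipid hydroperoxides in membranes, had 688 ± 269 CPM in db/m and 923 ± 93.2 CPM in db/db (SD, n = 4 each), against 11.7 ± 5.57 and 15.5 ± 3.39 CPM without the copies. The summed Gpx4 groups overlapped, with db/m replicate 3 at 318 CPM (690 to 951 in the other db/m libraries). The summed log2 fold change was 0.42 (SE 0.28, edgeR adjusted p = 0.504). It was 0.19 without db/m replicate 3 and 0.08 without db/m replicates 1 and 3. For Sod1 the summed values were 227, 233, 107 and 216 CPM in db/m and 274, 352, 253 and 298 CPM in db/db, which did not overlap. Its log2 fold change was 0.59 (SE 0.24, edgeR adjusted p = 0.352), near the 0.58 of its own counts. It was 0.39 without db/m replicate 3 and 0.38 without db/m replicates 1 and 3.

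Among the other summed genes, Gstm1 and Prdx2 had groups that did not overlap and log2 fold changes of 0.45 (SE 0.21) and 0.42 (SE 0.28). Both were smaller without db/m replicate 3, at 0.27 and 0.17, and without both db/m replicates 1 and 3, at 0.20 and 0.12. Gstp1, of the pi class, had 0.19 (SE 0.23) summed and 0.71 (SE 0.38) by its own few counts, 0.62 to 2.26 CPM in db/m and 1.87 to 2.63 CPM in db/db. Prdx1, the cytosolic peroxiredoxin, had 0.20 (SE 0.25) summed and 0.42 (SE 0.32) by its own counts. Without db/m replicates 1 and 3, Gstp1 and Prdx1 both had -0.09 summed. Txn1, the cytosolic thioredoxin, had 0.37 both summed (SE 0.31) and by its own counts (SE 0.32), which became 0.11 and 0.14 without db/m replicate 3. Prdx2, abundant in red blood cells, is set beside the erythroid markers, whose summed level was 1293 to 2955 CPM in db/m and 1325 to 1980 CPM in db/db, and whose part in its values was not tested.

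Per length, and leaving aside the 7 genes with dominant pseudogenes, RNA was highest for Gpx3, Prdx3, Cat, Gpx1 and Sod2 in db/m. Gpx3 was above Prdx3 there through db/m replicates 1 and 3 (293 and 314 RPKM, against 150 and 92.7 for Prdx3), while in db/m replicates 2 and 4 it was below it (131 and 124 RPKM, against 208 and 171). Prdx3 had 155 ± 48.4 RPKM in db/m and 195 ± 3.94 in db/db, Cat 81.5 ± 9.97 and 129 ± 21.6, Gpx1 68.5 ± 17.5 and 71.6 ± 10.3, and Sod2 62.4 ± 11 and 70.5 ± 3.63 (SD, n = 4 each). Gpx1 and Sod2 did not differ beyond their spread in either genotype, nor did Gpx3 and Prdx3 in db/m or Gpx3 and Cat in db/db. At the low end were Gss with 1.66 ± 0.199 and 1.98 ± 0.0843 RPKM, Txnrd2 with 2.17 ± 0.774 and 2.82 ± 0.573, and G6pdx with 2.74 ± 0.57 and 2.13 ± 0.508. Catalase RNA was thus above Sod2 RNA per length in db/db by more than their spread. This order rests on merged exon lengths of 2613 bases for Cat and 10008 for Sod2, whose level is uncertain as stated above. In CPM Sod2 was the higher in db/db, at 705 ± 36.3 against 336 ± 56.4 for Cat.

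Around these genes, 90 more genes of the same biochemistry were listed, of which 83 passed the filter. Of these, 0 passed the adjusted p in edgeR. At an unadjusted p under 0.05, 16 were higher and 4 lower in db/db, where 5.12% and 7.84% of all tested genes were. The median log2 fold change of the 83 was 0.17. The 14 tested genes listed as other NRF2 targets had a median of -0.03, with 6 positive and 8 negative. Among these 14, 0 were higher and 2 lower at that threshold, Abcc4 (-0.48, SE 0.15) and Ugdh (-0.66, SE 0.21). DESeq2 passed 5 of the 88 it fitted, 4 higher and 1 lower in db/db, against 1.77% of all genes to which it gave an adjusted p. The limma-voom fit passed 1 of 83, a higher one, against 0.747% of all genes. Txnip, which encodes the thioredoxin-binding inhibitor that rises with glucose (chromosome 3, 96557957 to 96561883), had 576, 475, 385 and 372 CPM in db/m and 996, 1253, 749 and 1028 CPM in db/db. Each db/db library was above each db/m library. Its log2 fold change was 1.16 (SE 0.20, edgeR adjusted p = 0.115). Adjusted p was 0.0316 without db/m replicate 3, 0.0415 without db/m replicates 1 and 3, 1.64e-05 with DESeq2 and 0.0156 with limma-voom.

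On the log2 scale Gstt2, a transferase outside the main list, differed by 0.87 (SE 0.20) and Gsta1 by 1.73 (SE 0.47), the latter at only 0.248 to 1.09 CPM in db/m and 1.18 to 2.25 CPM in db/db. Ggt5, a glutathione-cleaving gamma-glutamyl transferase, had 0.63 (SE 0.19). Sesn1, a stress-induced sestrin, had 0.58 (SE 0.15), and Txnrd3, the third thioredoxin reductase, had 0.60 (SE 0.16). Idh2, a mitochondrial source of NADPH, had 645, 851, 350 and 772 CPM in db/m and 1342, 1086, 1060 and 1147 CPM in db/db, a log2 fold change of 0.82 (SE 0.25). Xdh, a source of superoxide, had 0.44 (SE 0.13). These 7 genes were named for having, with Txnip, the smallest unadjusted p of this wider list. That choice favours groups that do not overlap, so the lack of overlap in all 7 is no separate support. Of all tested genes 5.04% were wholly higher in db/db. The edgeR adjusted p of the 7 ranged from 0.18 to 0.287.

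Among genes that act on NRF2 from outside the list, Sqstm1, the autophagy receptor that can sequester KEAP1, had 345, 398, 302 and 419 CPM in db/m and 509, 577, 427 and 543 CPM in db/db. The groups did not overlap, and the log2 fold change was 0.49 (SE 0.15, edgeR adjusted p = 0.296), or 0.33 without db/m replicates 1 and 3. Bach1, a repressor that competes with NRF2, had -0.07 (SE 0.18), with the high value of 98.1 CPM in db/m replicate 3, and 0.13 with that library left out.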

How the data were processed

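RNA sequencing libraries of 4 db/m and 4 db/db hearts were assigned to their group by the genotype in the labels. The authors deposited raw read counts for each Ensembl gene, as whole numbers and separately for each library, per the file headers. The genome build was mm10, per the submitters' processing notes. Which aligner, counter, strand setting and annotation release they used is not given in the sources used here. Symbols came from GENCODE M21 by identifier, for 55480 of 55573 rows.

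The test was that of edgeR 4.0.16 (R 4.3.3): filterByExpr defaults (minimum count 10, minimum total 15), TMM scaling, robust quasi-likelihood F test on genotype, two-sided, Benjamini-Hochberg over all 17411 tested genes, threshold 0.05. CPM use the scaled library sizes; RPKM are CPM divided by merged exon length. The fits were tested on simulated data. Pseudogenes were matched with BLAST 2.17.0 (minimum identity 95%, minimum aligned share of the pseudogene 0.5). Alternatives were DESeq2 1.42.0, limma-voom 3.58.1 with sample quality weights, other scalings and filters, a replicate block, and leaving out libraries. Adding pseudogene counts and removing each library's trend on gene length were chosen after seeing the data. No 2 libraries of one genotype matched within sampling noise.

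The genes and lists were chosen with earlier results of these data known. Values in every library are given for listed genes with an unadjusted p under 0.05 and for the 2 genes of each arm with the most counts per kilobase. Of the other redox genes the 8 with the smallest unadjusted p are named, with Txnip, Bach1 and Sqstm1.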

Additional observations from a re-analysis of the deposited data

Results flagged for a closer look

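Single libraries that stood apart from their group of 4 by Dixon's criterion at its 95% level were found in 10 of 94 groups tested, where chance gives about 1 in 20, and 6 of the 10 were db/m replicate 3. That library was lowest in db/m for Hmox1 at 9.55 CPM (14.8 to 15.3 in the others), for Gstm1 at 26.6 CPM (99.7 to 111), for Txn2 at 98.2 CPM (192 to 209), for Prdx1 at 13.4 CPM (40.8 to 45.1) and for Prdx5 at 37.6 CPM (127 to 141). It was highest for Bach1 at 98.1 CPM (59.2 to 65.4). Prdx4 was highest in db/m replicate 1 at 15.5 CPM (10.2 to 11 in the others). Among db/db libraries, Txnrd2 was lowest in replicate 3 at 8.66 CPM (13.3 to 14.1), Prdx1 was highest in replicate 2 at 56.6 CPM (43.9 to 45.3), and Bach1 was highest in replicate 3 at 81.9 CPM (64.0 to 64.2).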

How the results depend on the processing

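Of the 37 antioxidant genes, 3 passed an adjusted p of 0.05 with DESeq2, 2 with limma-voom, 1 without db/m replicates 1 and 3, and 0 to 2 with single libraries left out, the 2 without db/m replicate 3. Leaving out single libraries gave 5 to 12 genes with an unadjusted p under 0.05 (12 without db/m replicate 3 and 11 without db/m replicate 2, 32.4% and 29.7% against 13.2% and 16.2% of all genes) and 8 to 14 whose groups did not overlap (37.8% of them without db/m replicate 2, against 16.8% of all genes, and 32.4% with db/db replicate 3 left out, against 14.5%). Of the other redox genes, 5 passed with DESeq2, 1 each with limma-voom, with no filter on low counts and without db/m replicates 1 and 3, and 0 to 1 with single libraries left out. Over all genes the counts were 354 with DESeq2, 130 with limma-voom, 27 with no filter, 46 without db/m replicates 1 and 3, 12 with the gene length trend removed, and 0 to 106 with single libraries left out. The median of glutathione synthesis was -0.20 when scaled by total counts, which moved the median of all genes by -0.11, then -0.01 without db/m replicates 1 and 3, and -0.15 to 0.04 with single libraries left out; that of dismutases and catalase was 0.14 without db/m replicates 1 and 3.

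Same-numbered libraries did not deviate together (r from -0.088 to 0.056). This cannot decide whether the replicate numbers are a pairing, because each group is small and some db/m libraries stood apart. With a replicate block 0 of the 37 passed the adjusted p, all genes gave 5 calls, and Txnrd1 had 0.01.

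Nqo1, Gsta4, Mgst3, Cat, Sod1 and Gpx8 kept their direction in 19 of 19 settings. Signs turned for genes with log2 fold changes near 0 or resting on single libraries, none of them past the adjusted p; the cause was not tested. With limma-voom these were Hmox1 (-0.05), Gpx1 (-0.04), Gstk1 (-0.09), Srxn1 (-0.01) and Bach1 (0.08). Scaled by total counts they were Gpx1 (-0.04), Srxn1 (-0.04) and Prdx4 (-0.08). Without db/m replicates 1 and 3 they were Gpx1 (-0.0039), Gpx3 (0.13), Gpx4 (-0.02), Gstk1 (-0.18), Mgst1 (0.01), Txn1 (-0.01), Txn2 (-0.06), Srxn1 (-0.05), Sod2 (-0.03) and Bach1 (0.07). With the length trend removed they were Gpx1 (-0.06), Txnrd1 (0.05), Srxn1 (-0.01), Prdx4 (-0.09) and Bach1 (0.0036), and with no filter Txnrd1 (0.01). With pseudogene counts added, Gstp1 and Prdx1 both had -0.01 without db/m replicate 3 and -0.09 without db/m replicates 1 and 3. With single libraries left out, ranges spanned 0 for Hmox1 (-0.02 to 0.33), Gclm (-0.15 to 0.04), Gpx1 (-0.09 to 0.20), Gstk1 (-0.10 to 0.26), Mgst1 (-0.18 to 0.01), Txn2 (-0.01 to 0.28), Txnrd1 (-0.14 to 0.06), Srxn1 (-0.06 to 0.14), Prdx4 (-0.05 to 0.20) and Bach1 (-0.16 to 0.13).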
